A study of Homo sapiens with 21 samples.

Results

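Cancer-testis antigens are proteins made mainly in the germ line and in tumors. The genes described here are the protein-coding genes whose GENCODE symbols begin with MAGEA, MAGEB, MAGEC, SPANX, GAGE, PAGE, XAGE, CTAG or SSX, together with PRAME. By that rule GENCODE version 44 holds 79 genes, and 77 of them were among the 58870 genes measured in 21 libraries of the melanoma line A375 and its derivatives. These comprised 12 MAGEA, 11 MAGEB, 3 MAGEC, 10 SPANX, 13 GAGE, 6 PAGE, 5 XAGE, 3 CTAG and 8 SSX genes and PRAME. A further 4 CTAGE genes and SSX2IP, the gene of a protein that binds SSX2, meet the rule by the letters of their symbols and belong to other families. Of the 77 genes, 71 lie on chromosome X. The highest value of a CTAGE gene in any library was 6.11.

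Messenger RNA had been sequenced in 7 groups of 3 libraries. CRT35 and CRT34 are A375 lines that became tolerant to inhibition of BRAF and MEK as tumors in mice, and their cells were grown in medium with the BRAF inhibitor PLX4720 (1 µM) and the MEK inhibitor PD0325901 (35 nM). Each was sequenced on both inhibitors (CRT35 Combo, CRT34 Combo) and on solvent (CRT35 DMSO, CRT34 DMSO), for a time that the labels do not give. In gSOX10 #4 and gSOX10 #2 the gene of SOX10, which directs neural crest and melanocyte development, had been targeted by CRISPR/Cas9 with a different guide in each. Parental A375 cells, without inhibitors, were the reference, and every line shares their mutant BRAF. Each knockout group is a single clone, no clone made with a control guide was analysed here, and a comparison of a Combo group with the parental line holds the line and the drugs together. The labels give gSOX10 #4 a clone number that the study uses for another melanoma line, and the group was set here by the labelled line and condition. The study describes the replicates of the A375 clones as independent, and the labels say nothing of how a group's 3 libraries were grown, so the p-values measure only the spread among these libraries, which may be technical.

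Most of these genes are silent in adult tissues outside the testis and are kept so by DNA methylation of their promoters. Melanomas often express them, and peptides of their products presented on HLA molecules are recognized by T cells, which makes them targets of vaccines and engineered receptors. The MAGE-A, MAGE-B and MAGE-C proteins bind E3 ubiquitin ligases through a shared homology domain, the SPANX proteins belong to the maturing spermatid, and the SSX proteins repress transcription. PRAME, an antigen first found in melanoma, is a substrate receptor of a ubiquitin ligase.

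SOX10 was examined first. It was listed at 0 in all 3 libraries of CRT35 Combo, CRT35 DMSO and CRT34 Combo and at 6.32, 0 and 0.974 in CRT34 DMSO. The gSOX10 #4 libraries had 456, 488 and 517 and the gSOX10 #2 libraries 392, 504 and 460, against 10348, 11877 and 12822 in the parental line. These are normalized values, gene counts that the authors had divided by a size factor for each library. Depth read from the steps between low values was 51.5 to 75.6 M reads in 20 libraries and 27.3 M in CRT35 DMSO replicate 1. CRT34 Combo replicate 3, at 67.9 M reads, was the other library in doubt, for its low values of several members. Counts without both are given below. Since the members' own values chose that library, these counts only describe the data and are no check. Of 10 germ cell markers, 4 to 8 were at 0 in every library of a group, and their summed value ran from 3.36 to 31.7 over all libraries. Of 8 melanocytic markers, MLANA was listed at 0 throughout, and the summed value was 1353 to 10811 in the 6 derived groups and 12319 to 14708 in the parental line, where SOX10 itself made up most of it. MITF, the master regulator of melanocytes, had group means of 1449 to 7658 in the derived groups, against 1447 in the parental line. The sum of 5 leukocyte markers, nearly all of it CD68, was 3184 to 16881 in the derived groups and 1158 to 1298 in the parental line, and that of 4 keratinocyte markers 0.873 to 103 and 320 to 372. The sum of 4 endothelial markers was 91.8 to 623 in the derived groups and 144 to 171 in the parental line, and PECAM1 averaged 345 in CRT35 DMSO and 364 in CRT34 DMSO, against 12.3 in the parental line. The part of these differences in the results was not tested. In bulk RNA, fewer cells that express a gene and less of its RNA in each cell cannot be told apart.

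Changes are log2 fold changes of the value plus 1 from limma, given with the standard error (SE) and a p adjusted over 19290 genes. Genes with an adjusted p no higher than 0.05 and a fold of 2 or more are termed called. To be tested, a gene needed values of 10 or more in 3 or more libraries, which 50 of the 77 members had. Of the other 27, 4 were at 0 in all 21 libraries, and the highest value of any was 31.8. Only 28 of the 50 reached 10 in every library, so many passed through the groups in which they were high, and the counts below describe the members and are no support for them. Many members are near-identical copies, and the share of each transcript's short sequence windows found in another gene is given where reads could be divided between copies.

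CRT34 Combo had the most members called higher than in the parental line. There 22 of 50 were higher and 3 lower, where 27.2% of all genes tested were called, 19.1% higher and 8.09% lower. In CRT35 Combo 14 were higher and 8 lower, where 30.3% of all genes were called, 20.1% higher and 10.2% lower. In CRT35 DMSO 11 were higher and 7 lower, where 23.7% of all genes were called, 15.7% higher and 7.98% lower. In CRT34 DMSO 14 were higher and 4 lower, where 23.1% of all genes were called, 15.7% higher and 7.35% lower. With just these groups fitted only 36 members were tested, 8 being higher and 2 lower, where 3829 of 17180 genes were called. With a pseudocount of 10, 9 of 50 were higher and 3 lower, where 3798 of 19290 genes were called. The clone gSOX10 #4 had 18 higher and 8 lower, where 20.7% of all genes were called, 11.8% higher and 8.91% lower. The clone gSOX10 #2 had 10 higher and 10 lower, where 23.7% of all genes were called, 15.9% higher and 7.78% lower. As shares, 44% of the members were called in CRT35 Combo, 36% in CRT35 DMSO, 50% in CRT34 Combo, 36% in CRT34 DMSO, 52% in gSOX10 #4 and 40% in gSOX10 #2. The median log2 change of the 50 was 0.77 in CRT34 Combo, against 0.04 over all genes, and between -0.18 and 0.25 in the other 5 groups. Among 660 other genes of chromosome X, 30.3% were called in CRT34 Combo and 22.7% in gSOX10 #4. These 6 comparisons share the parental libraries. The split of calls depended on the scaling. Of all genes called, 66.4% were higher in CRT35 Combo, 66.3% in CRT35 DMSO, 70.2% in CRT34 Combo, 68.2% in CRT34 DMSO and 67.1% in gSOX10 #2, and with quantile normalization 50.8%, 54.1%, 51.8%, 53.4% and 53.9%. The members called higher and lower were then 11 and 9, 9 and 9, 20 and 6, 10 and 6, and 9 and 11 in these groups. Without both doubted libraries the members called were 22 in CRT35 Combo, 18 in CRT35 DMSO, 24 in CRT34 Combo, 16 in CRT34 DMSO, 25 in gSOX10 #4 and 20 in gSOX10 #2.

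**Figure D1:**
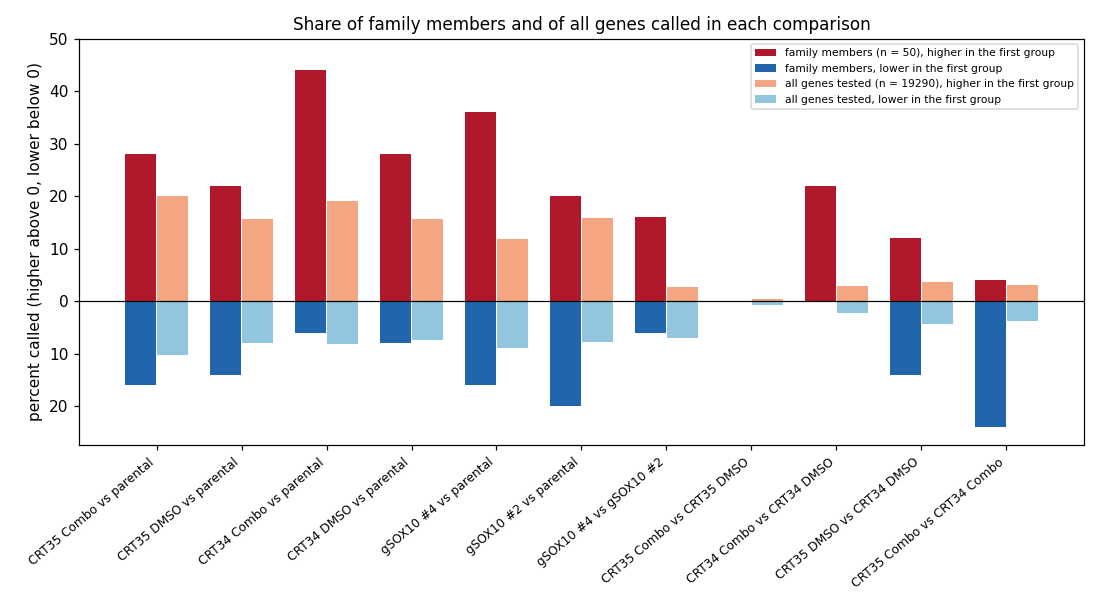
Percent of the 50 tested family members (dark bars) and of all 19290 genes tested (light bars) called higher (above 0) or lower (below 0) in the first group named on the horizontal axis. In CRT34 Combo against the parental line 44% of members were higher and 6% lower, against 19.1% and 8.09% of all genes, and in CRT35 Combo against CRT35 DMSO no member was called.

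Only MAGEB18, SPANXB1 and SPANXC were called higher in all 6 comparisons, and MAGEB18 was listed at 0 in the parental line. GAGE12H and SSX1 were called lower in all 6. GAGE12H reached 10 only in parental libraries, so it was tested only because it was high there. Of its windows 78.1% are shared with other copies, and the GAGE sum was 1.74 to 6.08 times the parental one. Another 11 members, namely CTAG1B, CTAG2, GAGE12E, GAGE12J, GAGE2A, MAGEA1, MAGEA9B, MAGEB2, PAGE1, SPANXN3 and SSX4, were called higher in at least 1 line and lower in at least 1 other. With a pseudocount of 10 only 8 of these were, since the lower calls of CTAG2, MAGEA9B and SPANXN3 rest on low values and were lost (adjusted p of 0.0529 to 0.0881 for SPANXN3 and up to 0.24 for MAGEA9B), and MAGEB18 was not called in CRT34 DMSO or gSOX10 #2. In all, 34 of the 50 were called in at least 1 of these comparisons and 16 in none of the 12 made. Of all genes tested, 20.7% to 30.3% were called in each of the 6. Shares of all genes called at least once, in all 6 or in both directions are not given here, so these counts only describe the members.

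The SPANX genes, of which all but SPANXN5 lie on the long arm of chromosome X, had their highest summed values in the clones. All 7 tested members were called higher in gSOX10 #4, and in gSOX10 #2 5 were called higher and 1, SPANXN3, lower. Of the 7, SPANXN1 and SPANXN3 reached 10 only in gSOX10 #4 libraries. They were tested only because they were high there, so their calls are no support. The counts were 5 higher and 1 lower in CRT34 Combo, 4 and 1 in CRT34 DMSO, 4 and 1 in CRT35 Combo, and 2 and 1 in CRT35 DMSO. Summed over the family, values were 23037 ± 655 in gSOX10 #4 and 12878 ± 975 in gSOX10 #2, against 446 ± 36.9 in the parental line (SD, n = 3).

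SPANXB1, whose product is found in the sperm nucleus, carried most of that sum. Only 0.820% of its windows were shared with another gene. It had 5255, 5291 and 3326 in CRT35 Combo, 2604, 2854 and 2912 in CRT35 DMSO, 6549, 6265 and 2854 in CRT34 Combo and 1897, 1978 and 3042 in CRT34 DMSO. The clones stood higher still, at 19670, 18635 and 17823 in gSOX10 #4 and 10500, 11141 and 9561 in gSOX10 #2, against 176, 209 and 207 in the parental line. No derived library overlapped the parental ones, and the lowest derived library, CRT34 DMSO replicate 1, stood far above the highest parental one. The log2 change was 6.56 in gSOX10 #4 and 5.71 in gSOX10 #2 (SE 0.25, adjusted p = 1.23e-12 and 1.09e-11). In CRT35 Combo, CRT35 DMSO, CRT34 Combo and CRT34 DMSO it was 4.51, 3.82, 4.63 and 3.51, and the highest adjusted p was 2.45e-09.

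SPANXA2 and SPANXA1 are copies that share 100% and 96.9% of their windows, so a division of reads between them is uncertain. SPANXA2 had 362, 275 and 190.1 in CRT35 Combo, 139, 157 and 231 in CRT35 DMSO, 2521, 1771 and 1503 in CRT34 Combo and 939, 1343 and 2010 in CRT34 DMSO. It stood at 2296, 2999 and 2821 in gSOX10 #4 and 1400, 1897 and 1768 in gSOX10 #2, against 138, 159.7 and 138 in the parental line. In contrast to SPANXB1, it was called higher in CRT34 and both clones and not in CRT35. The CRT35 Combo libraries were all above the parental ones, by less than 2 times in the mean, and the CRT35 DMSO libraries overlapped them. Its log2 change was 3.69 in CRT34 Combo, 3.22 in CRT34 DMSO, 4.20 in gSOX10 #4 and 3.52 in gSOX10 #2 (SE 0.28, adjusted p at most 3.19e-08). SPANXA1 averaged 124 ± 4.79 in CRT35 Combo, 81.3 ± 9.74 in CRT35 DMSO, 414 ± 23.6 in CRT34 Combo and 287 ± 73.4 in CRT34 DMSO. The clones had 724 ± 71.6 in gSOX10 #4 and 408 ± 60.0 in gSOX10 #2, against 47.1 ± 8.23 in the parental line. SPANXA1 was called higher in all groups but CRT35 DMSO, and its call in CRT35 Combo (log2 change 1.39) was lost with quantile normalization (0.85).

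SPANXC and SPANXD are further copies of the cluster, with 56.8% and 23.4% of their windows shared. SPANXC averaged 106 ± 34.8 in CRT35 Combo, 66.0 ± 13.2 in CRT35 DMSO, 114 ± 27.6 in CRT34 Combo and 43.7 ± 11.96 in CRT34 DMSO. It reached 414 ± 53.3 in gSOX10 #4 and 233 ± 46.9 in gSOX10 #2, against 9.58 ± 1.18 in the parental line, a log2 change of 5.29 and 4.46 (SE 0.31). SPANXD was called higher in CRT35 Combo, CRT34 Combo and both clones. Its mean was 191 ± 69.8 in CRT35 Combo, 84.0 ± 34.8 in CRT35 DMSO, 111 ± 20.98 in CRT34 Combo and 55.9 ± 33.6 in CRT34 DMSO. In gSOX10 #4 it was 390.0 ± 67.1 and in gSOX10 #2 147 ± 16.2, against 41.6 ± 6.31 in the parental line. Its call in CRT34 Combo was lost with quantile normalization.

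The SPANXN genes, an older branch of the family, set the clones apart. SPANXN3 averaged 70.2 ± 6.79 in gSOX10 #4 and was listed at 0 in gSOX10 #2, CRT35 Combo, CRT35 DMSO and CRT34 DMSO, against 2.91 ± 1.64 in the parental line. SPANXN1 averaged 23.4 in gSOX10 #4 and under 1 in each other group, a log2 change of 4.25 against the parental line (SE 0.53). Both genes passed the filter only through gSOX10 #4, so these values only describe the data. SPANXN2, SPANXN4 and SPANXN5 did not pass the filter.

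The 150 bases before the annotated start of SPANXB1, SPANXA2 and SPANXN3 are shown. These 3 genes each had their highest group mean in gSOX10 #4, at 18710, 2705 and 70.2. The windows are from RefSeq on GRCh38.p14, in which 68 of the 77 members matched. SPANXB1 lies at chrX:141002444-141002593 on the plus strand, SPANXA2 at chrX:141589558-141589707 on the plus strand and SPANXN3 at chrX:143517476-143517625 on the minus strand. Capitals mark ACAAAG, a core bound by SOX-type factors, and CCAAT, the CCAAT box, in either orientation (CTTTGT and ATTGG on the other strand), and the motifs do not overlap.
SPANXB1: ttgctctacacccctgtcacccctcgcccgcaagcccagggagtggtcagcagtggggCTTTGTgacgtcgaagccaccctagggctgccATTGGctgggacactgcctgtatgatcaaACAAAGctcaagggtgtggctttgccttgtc
SPANXA2: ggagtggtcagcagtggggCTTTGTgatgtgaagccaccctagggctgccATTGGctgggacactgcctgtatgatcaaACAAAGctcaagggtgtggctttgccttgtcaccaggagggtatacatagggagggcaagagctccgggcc
SPANXN3: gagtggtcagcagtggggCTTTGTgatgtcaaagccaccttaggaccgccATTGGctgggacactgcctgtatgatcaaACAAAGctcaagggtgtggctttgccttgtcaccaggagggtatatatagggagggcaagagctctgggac
All 3 windows held ACAAAG on both strands and an inverted CCAAT box between them. In the windows of 250 bases before the start, 8 of the 9 SPANX promoters matched held ACAAAG and all 9 held CCAAT. Both were held by 8, as by 4.59% of 34961 RefSeq promoters and by 4 of 7 SSX promoters. Among the latter was SSX1, called lower in all 6 comparisons with the parental line. SPANXD, called higher in both clones, lacked ACAAAG, and SPANXN2 and SPANXN5, which did not pass the filter, held both. A relation of the motifs to the changes was not tested. SPANXB1 and SPANXC shared an unbroken run of 127 bases in these windows, and SPANXB1 and SPANXD one of 16. Over all 68 member promoters ACAAAG was in 22.1% and CCAAT in 39.7%, against 13.7% and 32.0% of all promoters. A match says only that the letters are present.

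**Figure D2:**
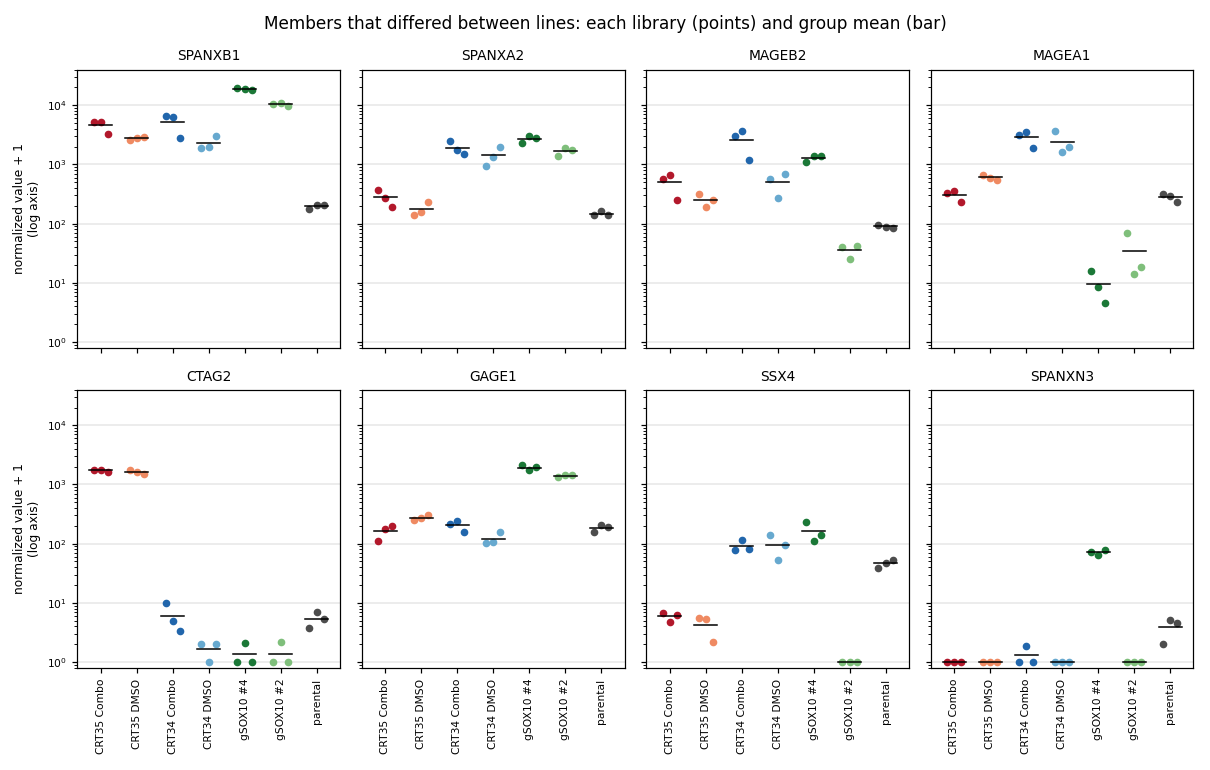
Normalized value plus 1 on a log axis of 8 members in each of the 21 libraries (points) with the group mean (bar), by group from CRT35 Combo to the parental line. SPANXB1 was at least 1897 in every derived library and at most 209 in the parental line, CTAG2 was at least 1500.2 in CRT35 and at most 8.76 elsewhere, and SPANXN3 reached a mean of 70.2 only in gSOX10 #4.

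The MAGEB genes are related to MAGEA and lie on the short arm of chromosome X. MAGEB2, whose product acts on stress granules, differed in direction between the clones. It had 576, 658 and 253 in CRT35 Combo, 316, 188 and 248 in CRT35 DMSO, 3052, 3657 and 1211 in CRT34 Combo and 577, 267 and 696 in CRT34 DMSO. gSOX10 #4 had 1087, 1371 and 1370 and gSOX10 #2 39.4, 24.3 and 41.2, against 94.5, 86.7 and 84.1 in the parental line. Every library of gSOX10 #4 and of CRT34 and CRT35 was above the parental ones, and every gSOX10 #2 library was below them. The log2 change was 4.74 in CRT34 Combo (SE 0.41, adjusted p = 4.02e-08), 3.83 in gSOX10 #4 (adjusted p = 9.99e-07) and -1.35 in gSOX10 #2 (adjusted p = 0.013). Without gSOX10 #2 replicate 2 that last adjusted p was 0.0672. Its windows were shared with no other gene.

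The windows before MAGEB2 and MAGEA4 are shown as examples, since MAGEB2 ran from 24.3 to 3657 over the libraries and MAGEA4 stayed high in each. MAGEB2 lies at chrX:30215413-30215562 and MAGEA4 at chrX:151912324-151912473, both on the plus strand of GRCh38.p14 as annotated by RefSeq. Capitals mark CG, the dinucleotide that DNA methylation acts on.
MAGEB2: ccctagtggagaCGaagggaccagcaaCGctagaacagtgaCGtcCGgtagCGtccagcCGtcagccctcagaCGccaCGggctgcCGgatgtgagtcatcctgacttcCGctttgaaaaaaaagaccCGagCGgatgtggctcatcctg
MAGEA4: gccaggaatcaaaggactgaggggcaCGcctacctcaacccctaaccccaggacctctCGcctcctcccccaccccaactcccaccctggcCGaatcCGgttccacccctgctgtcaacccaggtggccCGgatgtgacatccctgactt
The MAGEB2 window held 12 such CG sites and that of MAGEA4 held 5. In 250 bases MAGEB2 had 15 and MAGEA4 had 6. The median there was 8 over the 68 member promoters, from 1 to 26, and 11 over all promoters. Among other members called in no comparison, MAGEA12 had 5 and MAGEA3 and MAGEA6 each had 15. Among called members, MAGEB1 had 1 and MAGEC1 had 11. Whether the number of CG sites goes with expression was not tested.

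Among the other tested MAGEB genes, MAGEB18, MAGEB6 and MAGEB1 had low values, and MAGEB1 was called higher in CRT34 only. MAGEB18 was listed at 0 in all parental libraries and had group means of 4.52 to 57.0 in the derived lines. MAGEB6 averaged 76.3 ± 52.6 in CRT34 Combo and 48.5 ± 19.7 in CRT35 Combo, against 6.08 ± 2.605 in the parental line. MAGEB1 averaged 42.6 in CRT34 Combo, a log2 change of 5.13 (SE 0.72, adjusted p = 1.38e-05), and was listed at 0 in both clones. The other 7 MAGEB genes did not pass the filter.

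MAGEA1, the first human tumor antigen shown to be recognized by T cells, moved in opposite directions in CRT34 and the clones. It had 334, 348 and 229 in CRT35 Combo, 656, 594 and 553 in CRT35 DMSO, 3187, 3525 and 1887 in CRT34 Combo and 3608, 1632 and 2000 in CRT34 DMSO. In gSOX10 #4 it stood at 15.0, 7.39 and 3.57 and in gSOX10 #2 at 68.04, 13.0 and 17.5, against 318, 293 and 232 in the parental line. All CRT34 libraries were above and all libraries of the clones below the parental range. The log2 change was 3.31 in CRT34 Combo (SE 0.49, adjusted p = 2.51e-05) and 3.02 in CRT34 DMSO (adjusted p = 7.37e-05). It was -5.04 in gSOX10 #4 (adjusted p = 2.66e-07) and -3.42 in gSOX10 #2 (adjusted p = 2.22e-05).

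MAGEA9 and MAGEA9B, copies that share 90.02% and 79.9% of their windows, were highest in CRT35 and listed at 0 in both clones. MAGEA9 averaged 159.8 ± 24.6 in CRT35 Combo, 193 ± 40.9 in CRT35 DMSO, 60.8 ± 32.5 in CRT34 Combo and 22.1 ± 9.42 in CRT34 DMSO, against 3.06 ± 5.29 in the parental line. MAGEA9B averaged 102 ± 29.1 in CRT35 Combo, 117 ± 30.8 in CRT35 DMSO, 58.5 ± 35.9 in CRT34 Combo and 11.03 ± 3.50 in CRT34 DMSO, against 5.15 ± 4.42 in the parental line. The sum of the pair was 31.9 times the parental sum in CRT35 Combo and 4.04 times it in CRT34 DMSO. MAGEA8 was listed at 0 in the parental line and both CRT35 groups and averaged 27.0 in CRT34 Combo, through which alone it passed the filter.

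MAGEA10 and MAGEA11, a coregulator of the androgen receptor, were also called. MAGEA10 had 8368, 8323 and 6788 in CRT35 Combo, 7328, 8603 and 7849 in CRT35 DMSO, 7055, 8505 and 5237 in CRT34 Combo and 7369, 4268 and 5223 in CRT34 DMSO. The clones had 5391, 9442 and 10370 in gSOX10 #4 and 5698, 5522 and 5749 in gSOX10 #2, against 3562, 3837 and 3314 in the parental line. Every derived library of MAGEA10 was above the parental ones. The gene was called in CRT35 Combo, CRT35 DMSO and gSOX10 #4, with log2 changes of 1.13, 1.15 and 1.18 (SE 0.22, adjusted p at most 3.57e-04), and 11.8% of its windows are shared with a readthrough gene. MAGEA11 had 4862, 4805 and 4366 in CRT35 Combo, 4158, 4051 and 4320 in CRT35 DMSO, 5516, 5837 and 5140 in CRT34 Combo and 4053, 4197 and 4424 in CRT34 DMSO. Its values were 4665, 4009 and 3850 in gSOX10 #4 and 3161, 3256 and 3048 in gSOX10 #2, against 2720, 2477 and 2178 in the parental line. All derived libraries were above the parental ones, and the call was made in CRT34 Combo alone, at a log2 change of 1.17 (SE 0.11, adjusted p = 6.27e-08).

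MAGEC1 and MAGEC3 also changed. MAGEC1 averaged 62.2 ± 34.1 in CRT35 Combo, 44.3 ± 12.7 in CRT35 DMSO, 429.9 ± 176 in CRT34 Combo and 116 ± 35.9 in CRT34 DMSO. It averaged 119 ± 14.9 in gSOX10 #4 and 32.3 ± 8.23 in gSOX10 #2, against 61.1 ± 20.6 in the parental line, and was called higher in CRT34 Combo (log2 change 2.76, SE 0.44, adjusted p = 5.23e-05). MAGEC3 was called higher in CRT35 Combo, both CRT34 groups and gSOX10 #4, with overlapping libraries in gSOX10 #4. Its mean was 26.1 in CRT34 Combo, 6.62 in CRT35 Combo, 7.17 in CRT34 DMSO and 5.90 in gSOX10 #4, against 0.784 in the parental line. With a pseudocount of 10 only the call in CRT34 Combo was kept.

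The GAGE genes stand in a tandem array, and between 78.1% and 100% of the windows of GAGE12 copies are found in another copy, so that the sum is the firmer value. It was 820 ± 128 in CRT35 Combo, 1154 ± 90.7 in CRT35 DMSO, 908 ± 93.1 in CRT34 Combo and 677 ± 63.3 in CRT34 DMSO. The clones had 2368 ± 286 in gSOX10 #4 and 1717 ± 85.1 in gSOX10 #2, against 390 ± 33.4 in the parental line (SD, n = 3). Different members made up these sums. GAGE1, of whose windows 11.2% are shared, had 112, 178 and 195 in CRT35 Combo, 249.8, 272 and 299.5 in CRT35 DMSO, 215, 236 and 158 in CRT34 Combo and 100.8, 104 and 154 in CRT34 DMSO. It stood at 2099, 1729 and 1963 in gSOX10 #4 and 1328, 1469 and 1432 in gSOX10 #2, against 156, 209 and 191 in the parental line. Its libraries in both clones were far above those of every other group, a log2 change of 3.38 in gSOX10 #4 and 2.93 in gSOX10 #2 against the parental line (SE 0.23, adjusted p = 2.01e-09 and 1.40e-08).

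GAGE12J had the reverse pattern. It averaged 613 ± 89.1 in CRT35 Combo, 817 ± 49.7 in CRT35 DMSO, 516 ± 56.7 in CRT34 Combo and 454 ± 13.0 in CRT34 DMSO. In the clones it was 1.33 ± 2.30 in gSOX10 #4 and 0.863 ± 1.49 in gSOX10 #2, against 49.2 ± 12.6 in the parental line. Its log2 change was between 3.21 and 4.06 in the CRT groups and -4.84 and -5.00 in gSOX10 #4 and gSOX10 #2 (SE 0.51). GAGE12E averaged 114 ± 41.9 in gSOX10 #4 and 119 ± 14.9 in gSOX10 #2, against 24.7 ± 22.7 in the parental line. Its parental libraries had 44.7, 29.4 and 0. In the last of these GAGE12C and GAGE12D had 18.4 each, and 100% of the GAGE12E windows are found in GAGE12C, so reads could be divided between copies. GAGE12E was listed at 0 in both CRT35 groups and averaged 1.92 ± 1.67 in CRT34 Combo and 2.15 ± 0.895 in CRT34 DMSO. GAGE2A averaged 32.9 ± 11.9 in CRT35 Combo, 48.5 ± 19.7 in CRT35 DMSO, 159.9 ± 21.7 in CRT34 Combo and 89.9 ± 22.7 in CRT34 DMSO. It averaged 307 ± 72.8 in gSOX10 #4 and 186 ± 4.20 in gSOX10 #2, against 74.9 ± 4.08 in the parental line, and was called lower in CRT35 Combo and higher in CRT34 Combo and both clones. Its call in CRT34 Combo was lost with a pseudocount of 10 and with quantile normalization (adjusted p up to 0.193), and that in gSOX10 #2 with quantile normalization. Without CRT35 Combo replicate 3 its change there was under 2 times, and without parental replicate 1 GAGE12E had an adjusted p of 0.0507 in CRT35 DMSO. Of the copies with low values, GAGE12H averaged 34.1 in the parental line, through which alone it passed the filter, and at most 1.46 elsewhere.

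CTAG1A and CTAG1B encode NY-ESO-1, an antigen targeted in melanoma trials, and CTAG2 encodes its relative LAGE-1. CTAG2 marked CRT35. It had 1751, 1791 and 1654 in CRT35 Combo, 1733, 1650 and 1500 in CRT35 DMSO, 8.76, 3.97 and 2.34 in CRT34 Combo and 1.052, 0 and 0.976 in CRT34 DMSO. Values were 0, 1.12 and 0 in gSOX10 #4 and 0, 1.16 and 0 in gSOX10 #2, against 2.74, 6.01 and 4.35 in the parental line. Only the 6 CRT35 libraries rose above 10, with log2 changes of 8.38 in CRT35 Combo and 8.29 in CRT35 DMSO (SE 0.46, adjusted p = 5.30e-11 and 7.99e-11). Calls of lower values in CRT34 DMSO and the clones rest on values under 10 and were lost with a pseudocount of 10.

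CTAG1A and CTAG1B share 99.0% and 100% of their windows, so their sum is given first. It was 689 ± 75.2 in CRT35 Combo, 491 ± 36.5 in CRT35 DMSO, 934 ± 470 in CRT34 Combo and 972 ± 183 in CRT34 DMSO. It was 3425 ± 1125 in gSOX10 #4 and 1709 ± 363 in gSOX10 #2, against 1129 ± 88.8 in the parental line. CTAG1A alone had 611, 583 and 490.3 in CRT35 Combo, 243, 227 and 338 in CRT35 DMSO, 779, 209 and 204 in CRT34 Combo and 131, 411 and 623 in CRT34 DMSO. For gSOX10 #4 the values were 2732, 1786 and 1020 and for gSOX10 #2 1024, 1190 and 1039, against 458, 496 and 765 in the parental line. CTAG1B alone had 145, 120.3 and 117 in CRT35 Combo, 273, 281 and 111 in CRT35 DMSO, 649, 674 and 287 in CRT34 Combo and 652, 574 and 526 in CRT34 DMSO. Its values were 1952, 1287 and 1498 in gSOX10 #4 and 332, 891 and 650.3 in gSOX10 #2, against 590.0, 728 and 351 in the parental line. The libraries of 1 group often divided the pair unevenly and in opposite ways. In gSOX10 #4 both were called higher (log2 change 1.61, SE 0.50, adjusted p = 0.0164 for CTAG1A, and 1.55, SE 0.40, adjusted p = 0.00491 for CTAG1B), and CTAG1A was not without gSOX10 #4 replicate 1, parental replicate 1 or parental replicate 2 (adjusted p up to 0.0803).

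Among the SSX genes, known from their fusion to SS18 in synovial sarcoma, SSX4 and SSX1 changed. SSX4 averaged 4.88 ± 1.053 in CRT35 Combo, 3.29 ± 1.86 in CRT35 DMSO, 91.0 ± 19.8 in CRT34 Combo and 94.7 ± 43.98 in CRT34 DMSO. It averaged 161 ± 64.4 in gSOX10 #4 and was listed at 0 in gSOX10 #2, against 45.4 ± 6.77 in the parental line. Because 99.7% of its windows are found in SSX4B, the sum of the pair is firmer, at 0.154 and 1.76 times the parental sum in CRT35 Combo and CRT34 Combo and 2.73 times it in gSOX10 #4. SSX1 averaged at most 16.7 in a derived group, against 49.9 in the parental line. SSX2B and SSX2, near copies, were not called. SSX2B had 714, 1078 and 1282 in CRT35 Combo, 792, 1336 and 1286 in CRT35 DMSO, 1060, 1048 and 1916 in CRT34 Combo and 1586, 1558 and 1578 in CRT34 DMSO. Its values were 1835, 1218 and 990.0 in gSOX10 #4 and 1243, 1130 and 1260 in gSOX10 #2, against 1557, 1783 and 1659 in the parental line. The libraries of both CRT35 groups and of gSOX10 #2 were below the parental range by less than 2 times in the mean. SSX2 averaged 199 ± 101.02 in CRT35 Combo, 388 ± 227 in CRT35 DMSO, 326 ± 85.6 in CRT34 Combo and 300.4 ± 91.1 in CRT34 DMSO. In gSOX10 #4 it averaged 237 ± 47.3 and in gSOX10 #2 195 ± 54.5, against 317 ± 109.9 in the parental line. SSX3, SSX5 and SSX7 did not pass the filter.

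PAGE1 and XAGE2, relatives of GAGE, also divided the lines. PAGE1 averaged 23.01 ± 8.62 in CRT35 Combo, 24.8 ± 11.4 in CRT35 DMSO, 407 ± 134 in CRT34 Combo and 158 ± 18.2 in CRT34 DMSO. It averaged 44.01 ± 10.0 in gSOX10 #4 and 88.5 ± 6.66 in gSOX10 #2, against 98.8 ± 12.3 in the parental line. PAGE1 was called lower in both CRT35 groups and gSOX10 #4 and higher in CRT34 Combo (log2 change 1.99, SE 0.36, adjusted p = 1.83e-04). XAGE2 averaged 33.7 ± 10.2 in CRT35 Combo, 28.1 ± 10.4 in CRT35 DMSO, 107 ± 63.1 in CRT34 Combo and 22.0 ± 2.26 in CRT34 DMSO. It averaged 13.0 ± 7.56 in gSOX10 #4 and 38.7 ± 10.1 in gSOX10 #2, against 10.9 ± 2.45 in the parental line. It was called higher in CRT35 Combo, CRT34 Combo and gSOX10 #2, the first not with quantile normalization or without CRT35 Combo replicate 2 or parental replicate 3 (adjusted p up to 0.119). The PAGE1 call in gSOX10 #4 was likewise lost without gSOX10 #4 replicate 2 or parental replicate 2 (adjusted p up to 0.0655).

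The 16 members called in no comparison included several of high level. MAGEA4, a target of engineered T cell receptors, is the first of them. It had 66278, 66918 and 69991 in CRT35 Combo, 65622, 74946 and 74596 in CRT35 DMSO, 71964, 75564 and 84945 in CRT34 Combo and 60235, 84295 and 75693 in CRT34 DMSO. In gSOX10 #4 it had 68758, 77580 and 70360 and in gSOX10 #2 50202, 62806 and 58124, against 98809, 93725 and 83042 in the parental line. MAGEA4 was under the parental line in all 6 groups, and its adjusted p was below 0.05 in 5 of them without the change reaching 2 times. The largest was -0.69 in gSOX10 #2 (SE 0.12, adjusted p = 2.19e-04). An antisense gene overlaps MAGEA4, and the strand use of the counting is not given.

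MAGEC2, whose product joins the TRIM28 ligase, had 21736, 22631 and 20422 in CRT35 Combo, 20831, 22895 and 22582 in CRT35 DMSO, 19199, 21794 and 18384 in CRT34 Combo and 17452, 17347 and 17072 in CRT34 DMSO. It had 10560, 11105 and 11013 in gSOX10 #4 and 13550, 14391 and 13242 in gSOX10 #2, against 15165, 14340 and 13037 in the parental line. Every CRT library was above and every gSOX10 #4 library below the parental range, with log2 changes from -0.38 in gSOX10 #4 to 0.64 in CRT35 DMSO that did not reach 2 times.

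PAGE5 had 14333, 14386 and 14888 in CRT35 Combo, 14521, 16015 and 16546 in CRT35 DMSO, 14845, 15508 and 15230 in CRT34 Combo and 15462, 16756 and 16707 in CRT34 DMSO. Its values were 21104, 17035 and 19404 in gSOX10 #4 and 14956, 16922 and 15734 in gSOX10 #2, against 15127, 14763 and 13557 in the parental line. Only gSOX10 #4 lay wholly above the other groups. PAGE2 had 8222, 7377 and 7682 in CRT35 Combo, 7028, 7533 and 8035 in CRT35 DMSO, 8147, 8330 and 8081 in CRT34 Combo and 7012, 8011 and 8277 in CRT34 DMSO. It stood at 8253, 7751 and 8150 in gSOX10 #4 and 6854, 8501 and 7688 in gSOX10 #2, against 5455, 5537 and 5222 in the parental line. All derived libraries of PAGE2 exceeded the parental ones, by less than 2 times.

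XAGE1B and XAGE1A share 72.5% and 100% of their windows. XAGE1B had 13627, 14382 and 17108 in CRT35 Combo, 15112, 16879 and 19298 in CRT35 DMSO, 13401, 14697 and 14960 in CRT34 Combo and 13235, 12386 and 13645 in CRT34 DMSO. For the clones the values were 18508, 13348 and 14452 in gSOX10 #4 and 12614, 14445 and 14087 in gSOX10 #2, against 15321, 15397 and 16637 in the parental line. XAGE1A, the lesser copy, varied among the libraries of each group. It had 1175, 2198 and 2009 in CRT35 Combo, 2156, 3991 and 1536 in CRT35 DMSO, 1524, 2167 and 2969 in CRT34 Combo and 637, 1578 and 1590 in CRT34 DMSO. It had 1704, 2442 and 2268 in gSOX10 #4 and 2042, 3130 and 2422 in gSOX10 #2, against 2640, 2878 and 1304 in the parental line.

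MAGEA3, MAGEA6, MAGEA12, MAGEA2 and MAGEA2B stand close together on Xq28, and MAGEA3 and MAGEA6 share 35.6% and 34.0% of their windows. MAGEA3 had 9527, 10742 and 10102 in CRT35 Combo, 9973, 11054 and 10394 in CRT35 DMSO, 11565, 12342 and 9719 in CRT34 Combo and 14338, 10105 and 10419 in CRT34 DMSO. The values were 12556, 11819 and 12012 in gSOX10 #4 and 10853, 10744 and 9703 in gSOX10 #2, against 13268, 12153 and 11452 in the parental line. Its highest group mean was 1.21 times its lowest. MAGEA6 had 7743, 8899 and 8450 in CRT35 Combo, 8195, 9558 and 8672 in CRT35 DMSO, 9643, 10098 and 7407 in CRT34 Combo and 11360, 8062 and 8454 in CRT34 DMSO. In the clones it had 9346, 9634 and 9831 in gSOX10 #4 and 8770, 8356 and 7937 in gSOX10 #2, against 11269, 10397 and 9497 in the parental line, and the ratio was 1.24. MAGEA12 was the steadiest member, with a ratio of 1.15. It had 6472, 6730 and 6598 in CRT35 Combo, 6105, 6881 and 6761 in CRT35 DMSO, 7804, 8352 and 6591 in CRT34 Combo and 8115, 7302 and 7366 in CRT34 DMSO. It had 7259, 7609 and 7846 in gSOX10 #4 and 6659, 7522 and 6957 in gSOX10 #2, against 7473, 7414 and 6545 in the parental line.

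MAGEA2 and MAGEA2B share 89.4% and 82.3% of their windows. MAGEA2 had 4230, 5324 and 5063 in CRT35 Combo, 4415, 4870 and 5052 in CRT35 DMSO, 7320, 7799 and 5970 in CRT34 Combo and 7351, 5519 and 5343 in CRT34 DMSO. Its values were 7680, 7414 and 7166 in gSOX10 #4 and 5959, 6174 and 5603 in gSOX10 #2, against 7710, 7054 and 6810 in the parental line. All CRT35 libraries of MAGEA2 were below the parental range, by less than 2 times in the mean. MAGEA2B had 2641, 3097 and 2494 in CRT35 Combo, 3408, 3483 and 2946 in CRT35 DMSO, 4302, 5126 and 2804 in CRT34 Combo and 4612, 3562 and 4226 in CRT34 DMSO. It stood at 2992, 4133 and 4030 in gSOX10 #4 and 3210, 3033 and 3441 in gSOX10 #2, against 4128, 3553 and 3947 in the parental line.

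PRAME had 10024, 9425 and 9897 in CRT35 Combo, 10657, 11690 and 10828 in CRT35 DMSO, 9820, 9412 and 8469 in CRT34 Combo and 9847, 11027 and 11594 in CRT34 DMSO. It had 10148, 10203 and 11396 in gSOX10 #4 and 9738, 13008 and 12459 in gSOX10 #2, against 9271, 11903 and 10875 in the parental line. Each derived group overlapped the parental line, and the log2 change ran from -0.21 in CRT34 Combo to 0.13 in gSOX10 #2 (SE 0.12, adjusted p at least 0.165). SSX2IP, the centrosomal protein gene that meets the rule by name, had 2277, 2439 and 2588 in CRT35 Combo, 2232, 2622 and 2875 in CRT35 DMSO, 2631, 2056 and 2463 in CRT34 Combo and 2421, 2319 and 2199 in CRT34 DMSO. Its values were 1625, 2612 and 2583 in gSOX10 #4 and 4134, 3236 and 3019 in gSOX10 #2, against 3132, 2706 and 2792 in the parental line.

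**Figure D3:**
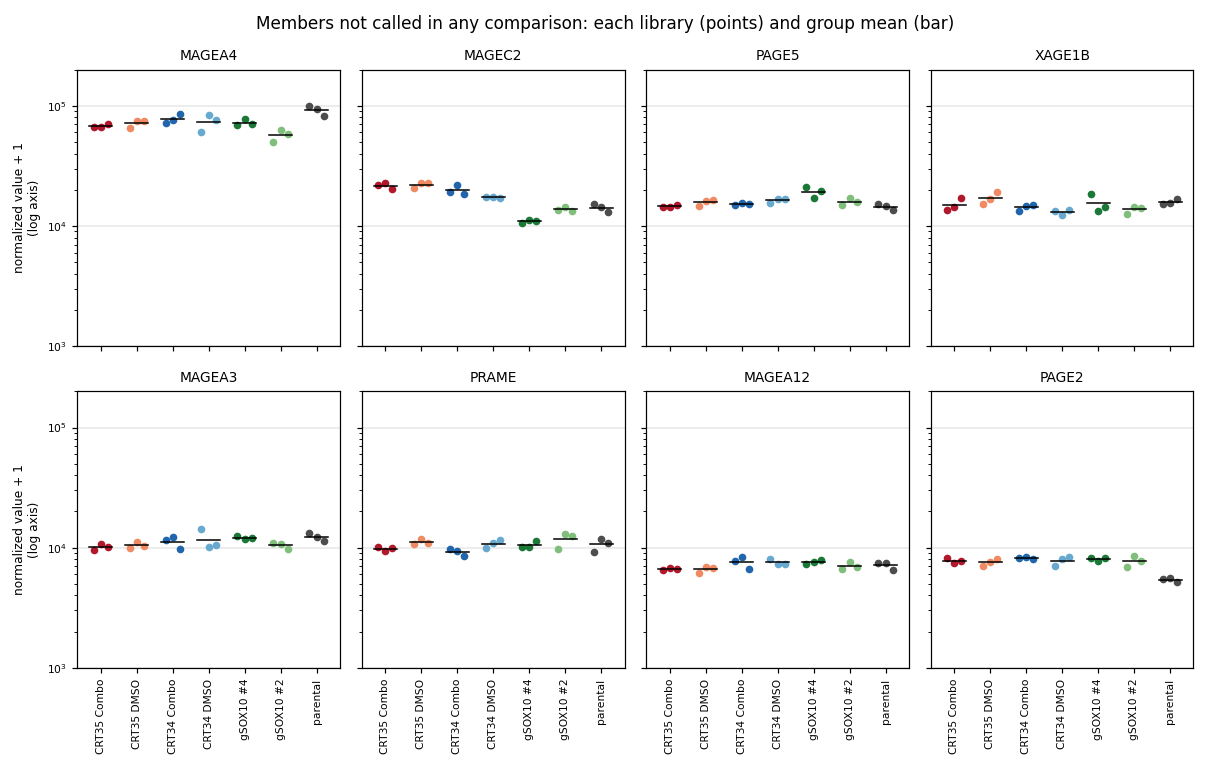
Normalized value plus 1 on a log axis of 8 abundant members in each of the 21 libraries (points) with the group mean (bar), by group from CRT35 Combo to the parental line. Values of MAGEA4 stayed between 50202 and 98809 and those of PRAME between 8469 and 13008, and no member shown was called in any comparison.

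Levels of different genes are compared only per kilobase of exon. On that scale MAGEA4 averaged 21682 over the 7 groups and PAGE5 21137, followed by SPANXB1 at 13565, PAGE2 at 11495, XAGE1B at 11423 and MAGEC2 at 8567. These means hide differences between groups, since the level of SPANXB1 per kilobase was 40149 in gSOX10 #4 and 22319 in gSOX10 #2, against 424 in the parental line. In both clones it was above those of PAGE5 (25507 and 21105) and MAGEA4 (21434 and 16927).

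Summed by family, the spread between lines was widest for SPANX and MAGEB. The MAGEB sum was 29.1 times the parental one in CRT34 Combo, 13.7 times in gSOX10 #4 and 0.562 times in gSOX10 #2, and SPANX stood at 51.7 times in gSOX10 #4 and 28.9 times in gSOX10 #2. MAGEB2 alone made up most of the MAGEB sum, at 2640 of 2815 in CRT34 Combo and 1276 of 1326 in gSOX10 #4. It was 35.0 of 54.4 in gSOX10 #2 and 88.4 of 96.8 in the parental line. The sums of MAGEA, MAGEC, PAGE, XAGE and PRAME kept between 0.725 and 1.56 times the parental ones. All members without CTAGE and SSX2IP summed to 0.893 to 1.08 times the parental sum, of which MAGEA4 is the largest single part.

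**Figure D4:**
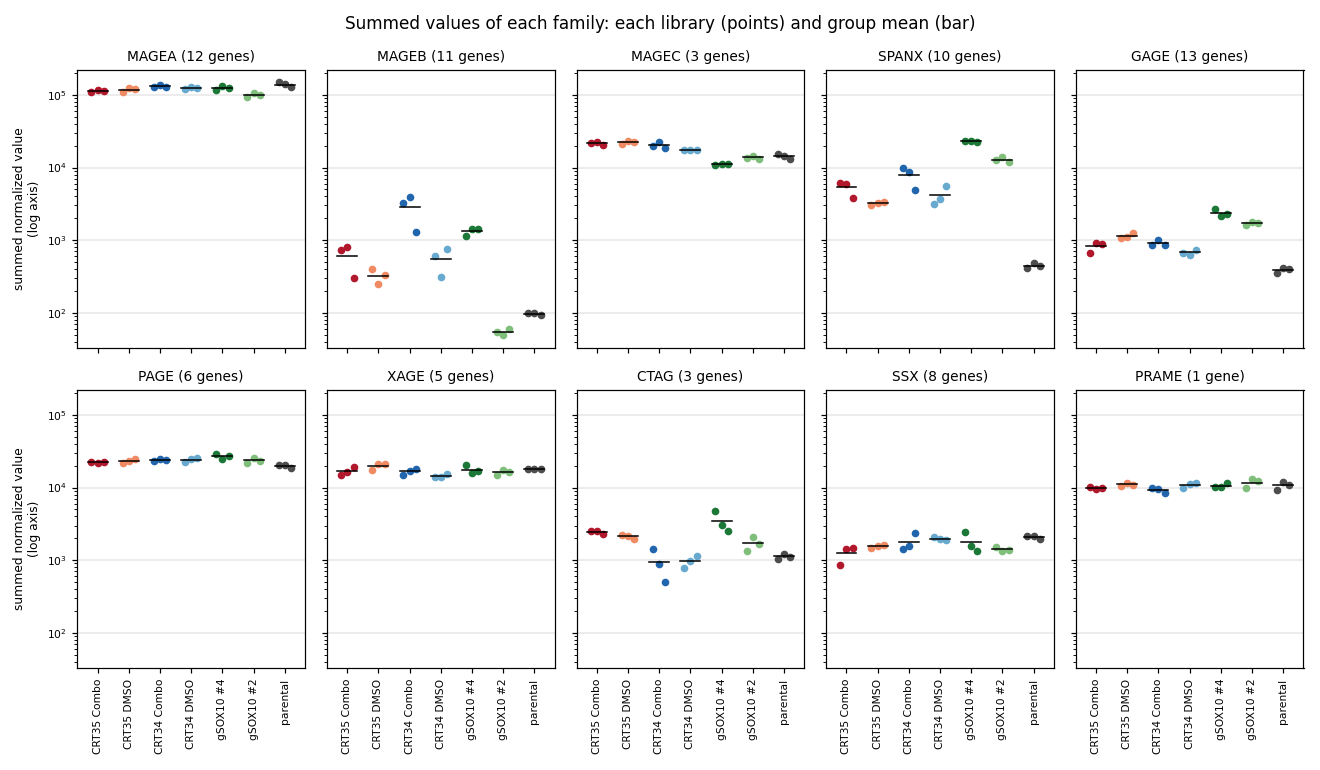
Summed normalized value of each family on a log axis in each of the 21 libraries (points) with the group mean (bar), by group from CRT35 Combo to the parental line. SPANX was at 23037 in gSOX10 #4 and 446 in the parental line, MAGEB was at 54.4 in gSOX10 #2 and 96.8 in the parental line, and MAGEA stayed between 94579 and 149263.

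The inhibitors were then compared with solvent within each CRT line. In CRT34, 11 of 50 members were called higher in Combo and 0 lower, where 5.1% of all genes tested were called, 2.84% higher and 2.26% lower. MAGEA8 (log2 change 3.07, SE 0.55), MAGEB18 (2.88, SE 0.61, adjusted p = 0.00668) and MAGEB6 (2.74, SE 0.78, adjusted p = 0.0358) changed most on that scale. MAGEA8 reached 10 only in CRT34 Combo libraries. It was tested only because it was high there, so its call is no support. MAGEB2 averaged 2640 ± 1274 in CRT34 Combo, against 514 ± 221 in CRT34 DMSO, a log2 change of 2.32 (SE 0.41, adjusted p = 0.00202). MAGEA9B, XAGE2, MAGEC1, CTAG2, SPANXC, PAGE1 and SPANXB1 followed, with log2 changes from 2.07 to 1.12. CRT34 Combo replicate 3 was the lowest of the 3 Combo libraries in all 11 members, and for SPANXB1 it fell below a DMSO library. The comparison rests on few libraries. It gave 4 members without CRT34 Combo replicate 1, 2 without CRT34 Combo replicate 2, 7 without CRT34 DMSO replicate 1, 6 without CRT34 DMSO replicate 2 and 0 when only these groups were fitted.

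In CRT35, 0 of 50 members were called by limma between Combo and DMSO, where 1.14% of all genes tested were called, 0.487% higher and 0.648% lower. Unadjusted p was under 0.05 for 8 members. SPANXB1 averaged 4624 ± 1124 in CRT35 Combo, against 2790 ± 164 in CRT35 DMSO, and MAGEB2 496 ± 214 in CRT35 Combo, against 251 ± 64.4 in CRT35 DMSO. Tested directly, the drug effect differed between CRT35 and CRT34 for 0 of 50 members, with 0.0104% of all genes called and an unadjusted p under 0.05 for 11 members. Without CRT34 Combo replicate 3, a library doubted for its member values, this was 1 member, GAGE1. Without CRT35 DMSO replicate 1 as well it was 2.

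**Figure D5:**
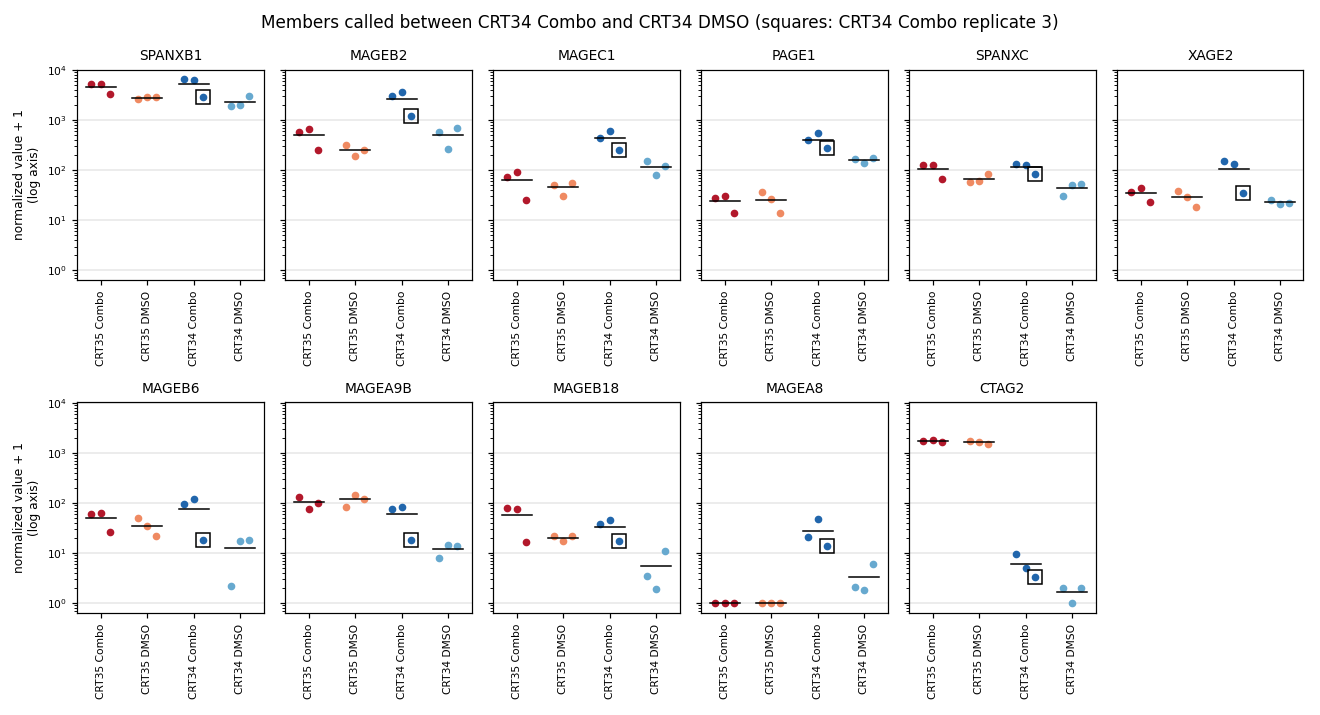
Normalized value plus 1 on a log axis of the 11 members called between CRT34 Combo and CRT34 DMSO in each library of the 4 CRT groups (points) with the group mean (bar), squares marking CRT34 Combo replicate 3. Combo means exceeded DMSO means in CRT34 for all 11, and replicate 3 was the lowest Combo library for each.

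CRT35 and CRT34 differed from each other in which members were high. On solvent, 6 of 50 members were higher in CRT35 DMSO than in CRT34 DMSO and 7 lower, where 8.11% of all genes were called, 3.69% higher and 4.42% lower. On inhibitors, 2 were higher in CRT35 Combo than in CRT34 Combo and 12 lower, where 6.91% of all genes were called, 3.17% higher and 3.74% lower. Same-numbered libraries of these Combo groups deviated together, and with the replicate number as a block 15 were called, XAGE2 being added. CTAG2 was higher in CRT35 by a log2 difference of 9.99 on solvent and 8.31 on inhibitors (SE 0.46, adjusted p = 5.29e-11 and 1.14e-09). SPANXA2 was lower in CRT35, with log2 differences of -2.98 and -2.82 (SE 0.28, adjusted p = 8.87e-07 and 1.66e-06), as was PAGE1 (-2.73 and -4.11). MAGEA1 was lower in CRT35 on solvent (-1.92, SE 0.49, adjusted p = 0.0115) and on inhibitors (-3.21, adjusted p = 2.19e-04), and without CRT34 DMSO replicate 1 the adjusted p on solvent was 0.0552.

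The clones, compared directly, had 8 of 50 members higher in gSOX10 #4 and 3 lower, where 9.7% of all genes tested were called, 2.64% higher and 7.06% lower. MAGEB2 differed by 5.18 on the log2 scale (SE 0.41, adjusted p = 7.96e-08), and SSX4 and SPANXN3 were listed at 0 in every gSOX10 #2 library. SPANXN1, SSX1, MAGEC1, CTAG1B and SPANXD were the others higher in gSOX10 #4. SPANXN3 and SPANXN1 had passed the filter only through gSOX10 #4. MAGEA1, PAGE1 and XAGE2 were lower, MAGEA1 with overlapping libraries, and with quantile normalization 11 were higher and 0 lower. The count was 6 without gSOX10 #4 replicate 1 or gSOX10 #4 replicate 2, and 7 without gSOX10 #4 replicate 3 or gSOX10 #2 replicate 1. SPANXB1 was 18710 ± 926 in gSOX10 #4 and 10401 ± 795 in gSOX10 #2 and did not reach a 2-fold difference.

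Related genes outside these families were described from lists of general knowledge. The type II MAGE genes, which are expressed widely and not only in the germ line, had 12 members, 8 of them tested. Against the parental line 2 were higher in CRT35 Combo, 1 in CRT35 DMSO, 4 in CRT34 Combo, 4 in CRT34 DMSO, 2 in gSOX10 #4 and 0 in gSOX10 #2, and 0, 1, 0, 0, 1 and 2 were lower. Of all genes 20.1%, 15.7%, 19.1%, 15.7%, 11.8% and 15.9% were higher in these groups and 10.2%, 7.98%, 8.09%, 7.35%, 8.91% and 7.78% lower, and counts of so few genes are only a description. MAGED2, which acts in renal salt handling, averaged 8286 ± 840 in CRT35 Combo and 5708 ± 413 in gSOX10 #4, against 2542 ± 269 in the parental line. NDN, the necdin gene, was listed at 0 in gSOX10 #2 and TRO, the trophinin gene, in gSOX10 #4, against 304 ± 15.0 and 167 ± 13.1 in the parental line.

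A list of 56 cancer-testis and germline genes of other families had 30 tested members, with 4, 3, 5, 4, 3 and 2 higher in CRT35 Combo, CRT35 DMSO, CRT34 Combo, CRT34 DMSO, gSOX10 #4 and gSOX10 #2 than in the parental line and 5, 5, 7, 6, 5 and 8 lower. Of all genes 20.1%, 15.7%, 19.1%, 15.7%, 11.8% and 15.9% were higher in these groups and 10.2%, 7.98%, 8.09%, 7.35%, 8.91% and 7.78% lower. The list's shares called higher were below these, in CRT34 Combo, CRT34 DMSO and gSOX10 #4 by little. Its shares called lower were above them. Counts of so few genes are only a description. The list's medians lay between -0.56 and -0.05. CT55 averaged 1396 ± 263 in gSOX10 #4 and 531 ± 72.5 in gSOX10 #2, against 77.2 ± 13.0 in the parental line. PASD1 averaged 727 ± 40.5 in CRT34 Combo and 523 ± 61.6 in CRT34 DMSO and was listed at 0 in both clones, against 9.93 ± 1.86 in the parental line. ROPN1, a sperm tail gene also expressed in melanoma, was called lower in all 6 groups.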

How the data were processed

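Messenger RNA libraries of 7 groups, 3 per group, had been prepared with a TruSeq kit, for which the sources give different versions, and whether the counting used strand is not given in the sources used here. The submitters' processing notes name STAR 2.6.1a, RSEM, Picard, DESeq2 and GRCh38. The deposited signal values are gene counts that the authors divided by a size factor for each library. They are not counts, so no count test was run. Groups were taken from the labels, and the 12 comparisons were fitted in R 4.3.3 with limma 3.58.1 (trended variance) on log2(value + 1) over all 21 libraries. Genes at 10 or more in at least 3 libraries entered (19290 of 32889 with any value above 0), with 14 residual and 4.7 prior degrees of freedom, and p was adjusted by the Benjamini-Hochberg method. Fold changes on this scale understate those of low genes, and none is given against a group listed at 0. The code was tested on simulated data. The family members and the gene lists were chosen with earlier results of these data known. SOX10 and all 37 members with a group mean of at least 100 were named, the 24 with the highest group mean in every library, and other members or list genes where called or by counts and ranges. Same-numbered CRT35 Combo and CRT34 Combo libraries deviated together (r = 0.218, 0.253 and 0.207), which no other of the 15 group pairs did, and the pairing comes from these correlations and the replicate numbers of the labels. Alternatives were no filter, a pseudocount of 10, only the compared groups, quantile normalization, equal totals, summed copies, a replicate block and libraries left out. Depth was read from the steps between low values, and coverage of a gene is not given. Promoters were from RefSeq (GRCh38.p14), with 9 members not matched: CTAG1A, CTAG1B, CTAG2, GAGE2E, MAGEA1, MAGEA10, MAGEB17, SPANXN4 and SSX3.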

Additional observations from a re-analysis of the deposited data

Results flagged for a closer look

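Several members moved in opposite directions in lines compared in the same way with the parental line. Between the clones, the log2 difference of gSOX10 #4 from gSOX10 #2 was 5.18 for MAGEB2 and 1.87 for MAGEC1, each library of the first clone lying above and each of the other below the parental libraries. SSX4 and SPANXN3 averaged 161 and 70.2 in gSOX10 #4 and were listed at 0 in gSOX10 #2. Between the lines on solvent, CRT35 DMSO differed from CRT34 DMSO by 9.99 for CTAG2, 1.21 for GAGE1, -2.73 for PAGE1 and -4.49 for SSX4 on the log2 scale. On inhibitors, CRT35 Combo differed from CRT34 Combo by -2.31 for GAGE2A, -4.11 for PAGE1 and -3.96 for SSX4. All of these passed the test of the difference by limma, which SPANXN3 entered only through its gSOX10 #4 libraries.

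The drug effect of GAGE1 differed between CRT35 and CRT34 by -1.56 (limma, adjusted p = 0.115) and that of GAGE12J by -0.60 (adjusted p = 0.948), with every library of a line moving opposite to the other line, and neither passed the test.

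MAGEA5P, a pseudogene of the MAGEA family and so outside the protein-coding members, was listed at 0 in all parental libraries. It averaged 12.7 in CRT35 Combo, 9.57 in CRT35 DMSO, 3.20 in CRT34 Combo, 2.11 in CRT34 DMSO, 5.78 in gSOX10 #4 and 2.183 in gSOX10 #2, and each group differed from the parental line by limma (adjusted p at most 0.0209).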

How the results depend on the processing

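Of 122 calls for members named by their level, 90 held under every alternative and 32 were lost under at least 1, and 28 other calls appeared under at least 1. CTAG2 in CRT34 Combo against the parental line, not called at 0.07, was called in the opposite direction at -1.21 with quantile normalization, where all its values in both groups were under 10. With near-identical copies summed there were 32 features to test, and 14 were called in CRT35 Combo, 16 in CRT34 Combo, 11 in CRT34 DMSO, 16 in gSOX10 #4 and 11 in gSOX10 #2 against the parental line and 8 in CRT35 DMSO against CRT34 DMSO. With only the compared groups filtered and fitted, fewer members were tested. In CRT34 DMSO against the parental line 10 of 36 were called, where 3829 of 17180 genes were. In CRT35 Combo against CRT35 DMSO 2 of 39 were called, where 298 of 17274 genes were, and in CRT34 Combo against CRT34 DMSO 0 were called. With both doubted libraries left out, the difference of drug effects gave 2. With 1 library left out at a time, gSOX10 #4 against gSOX10 #2 gave 6 to 12, CRT34 Combo against CRT34 DMSO 2 to 11 and the difference of drug effects 0 to 1. The causes were not tested. Quantile normalization moved the median log2 change of all genes by more than 0.1 from the parental line in the CRT groups, to -0.13 in CRT35 Combo, -0.10 in CRT35 DMSO, -0.12 in CRT34 Combo and -0.12 in CRT34 DMSO, and rescaling to equal totals gave 0.13 in CRT35 Combo, 0.14 in CRT34 Combo and 0.15 in gSOX10 #2. Members under 10 in most libraries are limited by depth.

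With the replicate number as a block, 21, 19, 26, 19 and 26 members were called in CRT35 Combo, CRT35 DMSO, CRT34 Combo, CRT34 DMSO and gSOX10 #4 against the parental line, 0 and 11 between Combo and DMSO in CRT35 and CRT34, 14 and 15 between CRT35 and CRT34 on DMSO and Combo, and 0 for the difference of drug effects. Apart from the Combo groups these samples share only a number. No paired analysis was possible for gSOX10 #2 because its titles number the libraries by another scheme than those of the other groups.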

Other observations

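Among 37 genes of DNA methylation and repression of germline genes, 36 were tested, and against the parental line 6 were lower in CRT35 Combo, 3 in CRT35 DMSO, 5 in CRT34 Combo, 4 in CRT34 DMSO, 8 in gSOX10 #4 and 7 in gSOX10 #2. Of all genes 10.2%, 7.98%, 8.09%, 7.35%, 8.91% and 7.78% were lower in these groups, so that the share in CRT35 DMSO was near that of all genes. Higher calls numbered 0, 0, 0, 1, 1 and 1, and the list's median log2 change was between -0.74 and -0.47, against 0.00 to 0.05 over all genes. EZH2, the catalytic subunit of the PRC2 repressor, averaged 1808 ± 674 in CRT35 Combo, 1832 ± 422 in CRT34 Combo and 1622 ± 481 in gSOX10 #2, against 4812 ± 438 in the parental line (SD, n = 3). DNMT1, the maintenance DNA methyltransferase, averaged 10670 ± 2150 in gSOX10 #2 and 12926 ± 1882 in gSOX10 #4, against 22349 ± 2133 in the parental line, and was called lower in gSOX10 #2 only. KDM5B, a histone demethylase, was called higher in CRT34 DMSO, gSOX10 #4 and gSOX10 #2.

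Among 19 genes of proteins that bind MAGE, PRAME or SSX products, all tested, 1 was lower in CRT35 Combo and 1 higher in CRT34 DMSO, and no other comparison with the parental line had a call. TRIM28, the ligase partner of MAGEA2, MAGEA3 and MAGEC2, averaged 15548 ± 3184 in CRT35 Combo, against 31494 ± 1950 in the parental line. TRIM8 averaged 4040 ± 307 in CRT34 DMSO, against 1955 ± 180 in the parental line.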
